A study of Danio rerio with 14 samples.

Results

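The genes tph1b and pcp4a were followed at the distal tip of zebrafish (Danio rerio) fin rays over 5 times of regrowth after amputation. They are 2 of the 14836 genes in the deposited table, and both were among the 11272 genes that passed a filter on low values. The genes were picked from these same data because they were high at 3 days post amputation (dpa) and had collapsed by 7 dpa. The values at 0, 3 and 7 dpa that chose them are therefore given as a description, without a test, and so is any comparison of the pair with those times.

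Serotonin is made from tryptophan in a pair of steps. Tryptophan hydroxylase, which tph1b encodes, carries out the first and rate-limiting step with tetrahydrobiopterin as cofactor, and the decarboxylase Ddc carries out the next. In regenerating zebrafish fins, tph1b is known as a marker of fibroblast-derived blastema cells, the proliferating mesenchyme under the wound epidermis. The gene pcp4a encodes a small protein with an IQ motif, which in mammals binds calmodulin, the calcium sensor of the cell, and alters how fast it exchanges calcium.

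Tissue was a strip of about 250 µm at the end of each ray, and every library is labelled wild type with no other allele or agent. The libraries fell into 3 each at 0, 3, 7 and 10 dpa and 2 at 14 dpa, and each came from a pool of 10 fish. The group labelled 3 dpa is given as 3.5 days in the design text. The sources used here do not give the age of the fish. Levels are TPM, a length-corrected share of all transcripts in a library. They keep no read depth, so depth is unknown and counting intervals cannot be given. The tip is a mixture of cells, and with bulk RNA, fewer cells of a type and less RNA per cell cannot be told apart.

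Correlations of log2(TPM + 1) between libraries of the same time lay between 0.953 and 0.991. On the second principal component, which held 20.3% of the variance, 4 libraries stood apart. These were replicate 1 of 0 dpa, replicate 2 of 7 dpa and replicates 2 and 3 of 10 dpa. The immediate early gene fosb reached 886 to 1702 TPM in them, against 23.0 to 144 TPM in the other libraries. No 3 or 14 dpa library was among them. The median change of all tested genes on the log2(TPM + 1) scale was 0.24 at 3 over 0 dpa, 0.19 at 7, 0.16 at 10 and 0.30 at 14 over 0 dpa, and changes are best read against those shifts.

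Before regrowth tph1b was barely detected. Its levels at 0 dpa were 0.338, 0.405 and 0.335 TPM. At 3 dpa the pools held 61.1, 86.1 and 89.5 TPM, a mean of 78.9 ± 15.5 TPM (SD, n = 3). Every 3 dpa pool thus stood far above every 0 dpa pool, and the means differed 219.6-fold. By 7 dpa the levels were 1.25, 1.01 and 2.45 TPM. The mean there, 1.57 ± 0.772 TPM (SD, n = 3), was 50.3-fold below the 3 dpa mean and amounted to 1.99% of it. At 10 dpa the pools held 1.20, 0.729 and 1.02 TPM, and at 14 dpa 1.75 and 1.33 TPM. The low level reached by 7 dpa was thus kept, with 7 and 10 dpa pools overlapping, and no later pool reached 3 TPM.

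**Figure D1:**
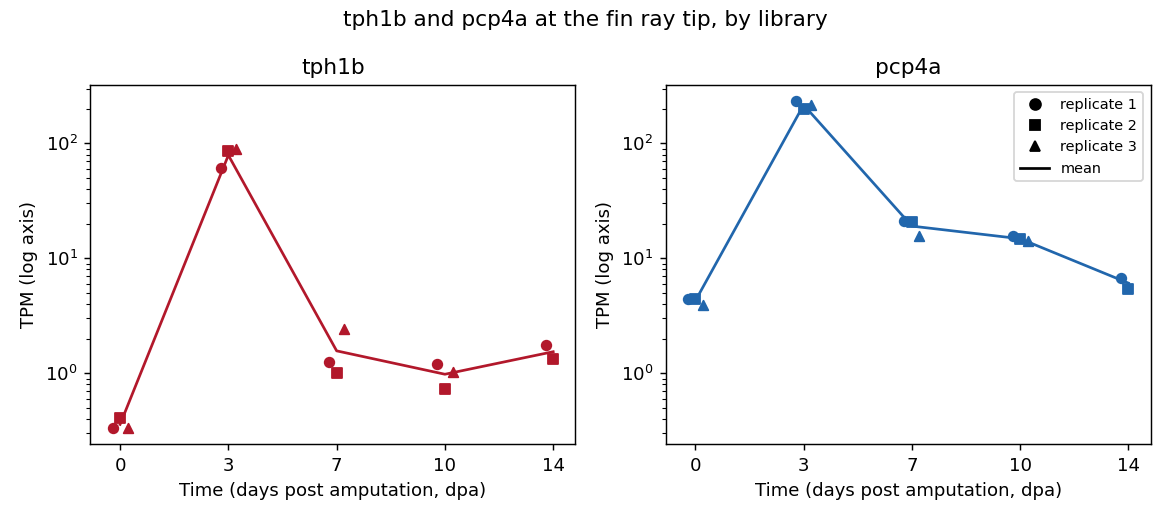
Levels of tph1b (left) and pcp4a (right) in TPM on a log axis against days post amputation, with 1 symbol per library and a line through the means. Both peak at 3 dpa, at means of 78.9 and 216 TPM, and tph1b then stays near 1 to 2 TPM while pcp4a goes on declining to a mean of 6.09 TPM at 14 dpa.

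The gene pcp4a started from a higher level and declined in steps. At 0 dpa its levels were 4.45, 4.38 and 3.96 TPM. At 3 dpa they were 232, 200.2 and 215 TPM, a mean of 216 ± 16.1 TPM (SD, n = 3), and the 3 dpa mean was 50.6-fold above the 0 dpa mean. The 3 dpa pools were again far above the pools of every other time. At 7 dpa the levels were 21.0, 20.5 and 15.7 TPM. Their mean of 19.1 ± 2.94 TPM (SD, n = 3) was 11.3-fold below that of 3 dpa, or 8.83% of it. At 10 dpa the pools held 15.7, 14.7 and 14.0 TPM, just under the lowest 7 dpa pool, and at 14 dpa 6.72 and 5.45 TPM. Ordered by mean, the times ran 0, 14, 10, 7 and 3 dpa, and no pair of neighbouring times overlapped, although the closest 7 and 10 dpa pools were nearly equal.

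On the log2(TPM + 1) scale tph1b was 5.86 ± 0.22 higher at 3 than at 0 dpa (± is the standard error of the model for all log2 changes) and differed by -4.98 ± 0.22 at 7 over 3 dpa. For pcp4a the corresponding differences were 5.36 ± 0.15 and -3.44 ± 0.15. Of the 11272 genes tested, tph1b had the 13th and pcp4a the 19th largest difference at 3 over 0 dpa. Their drops from 3 to 7 dpa were the largest and the second largest of all. At 3 dpa 709 tested genes had a higher mean TPM than pcp4a and 1982 had a higher mean than tph1b. At 7 dpa those numbers were 5519 and 10351. Both genes thus passed through the upper ranks of the transcriptome at 1 of the 5 times.

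From 10 to 14 dpa pcp4a fell, while no change was detected for tph1b. The levels at 10 and 14 dpa were not used to choose the genes, so the step between these times was tested, with limma and Benjamini-Hochberg adjustment over the 11272 genes. A result passed when its adjusted p was below 0.05. Between 10 and 14 dpa pcp4a fell by 1.16 ± 0.17 on the log2 scale (adjusted p = 0.00197), to a mean of 6.09 ± 0.899 TPM (SD, n = 2) at 14 dpa, against 14.8 ± 0.828 TPM (SD, n = 3) at 10 dpa. The call held in every alternative tried (-1.29 to -0.84, adjusted p at most 0.0376). For tph1b the same step was 0.36 ± 0.25 and did not pass (adjusted p = 0.387, 95% interval -0.17 to 0.89), although both 14 dpa pools lay above all 10 dpa pools. It passed with library weights only (0.51, adjusted p = 0.0370), and over all alternatives it was 0.13 to 0.61 with an adjusted p of up to 0.807. Of all genes tested, 8.77% passed at 14 over 10 dpa, 5.14% upward and 3.64% downward. The difference between the genes was not tested.

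Set against 0 dpa, a time that chose the genes, the later levels were as follows. At 10 dpa pcp4a averaged 14.8 ± 0.828 TPM, against 4.26 ± 0.267 TPM at 0 dpa (SD, n = 3 each). It was 3.47-fold higher there, and the log2 difference was 1.59 ± 0.15. At 14 over 0 dpa the log2 difference of pcp4a was 0.42 ± 0.17, and it shrank to 0.16 after median-of-ratios scaling of the libraries, to 0.016 after quantile normalization and to 0.26 with a pseudocount of 5. For tph1b the mean at 10 dpa was 0.981 ± 0.236 TPM, against 0.359 ± 0.0399 TPM at 0 dpa (SD, n = 3 each), a log2 difference of 0.54 ± 0.22. At 14 dpa tph1b averaged 1.54 ± 0.292 TPM (SD, n = 2), 4.29-fold above 0 dpa, with a log2 difference of 0.90 ± 0.25. These levels of tph1b are near the pseudocount of 1 TPM, where the log2 scale understates a fold. With a pseudocount of 0.1 its differences were 1.21 at 10 and 1.83 at 14 over 0 dpa, with a pseudocount of 5 they were 0.16 and 0.29, and quantile normalization gave 0.20 at 10 over 0 dpa.

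Taking the 5 libraries of 10 and 14 dpa together against the 3 of 0 dpa, all 5 were higher for each gene. The mean log2 difference was 0.68 for tph1b and 1.12 for pcp4a. For tph1b the libraries apart held 1.01 TPM at 7 dpa, against 1.25 and 2.45 TPM in the others of that time, and 0.729 and 1.02 TPM at 10 dpa, against 1.20 TPM. For pcp4a the library apart at 7 dpa held 20.5 TPM, against 21.0 and 15.7 TPM in the others.

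The balance between the pair moved as well. The ratio of pcp4a to tph1b, both in TPM and so corrected for length, was 10.8 to 13.2 at 0 dpa and 2.33 to 3.80 at 3 dpa. It was 6.41 to 20.4 at 7 dpa, 13.1 to 20.2 at 10 dpa and 3.85 to 4.09 at 14 dpa. The pools at 3 and 14 dpa therefore had the lowest ratios, at levels of tph1b that differed widely.

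Few genes shared so complete a return. Of the tested genes, 185 were higher by at least 3 on the log2 scale at 3 than at 0 dpa, and at 7 dpa a median of 75.1% of that log2 difference was left. In 4 of the 185, at most 25% was left. These were etf1a with 12.9%, tph1b with 15.0%, the histamine receptor gene hrh3 with 16.5% and si:dkey-1h24.2 with 21.9%. The next gene, the potassium channel gene kcnma1a, had 27.5% left. For pcp4a 35.8% was left, the 9th lowest share. In TPM the median gene of the 185 kept 50.6% of its 3 dpa mean at 7 dpa, and tph1b kept the smallest share of all. Its receptor neighbour in shape, hrh3, averaged 46.9 TPM at 3 dpa, against 2.11 TPM at 0 dpa and 3.78 TPM at 7 dpa. These shares are descriptions, since the shape is what chose the genes. The log2 share of tph1b also depends on the pseudocount, since its means of 0.359 TPM at 0 dpa and 1.57 TPM at 7 dpa are near 1 TPM. With a pseudocount of 0.1 its differences were 7.41 at 3 and 1.77 at 7 over 0 dpa, and with a pseudocount of 5 they were 3.95 and 0.29.

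**Figure D2:**
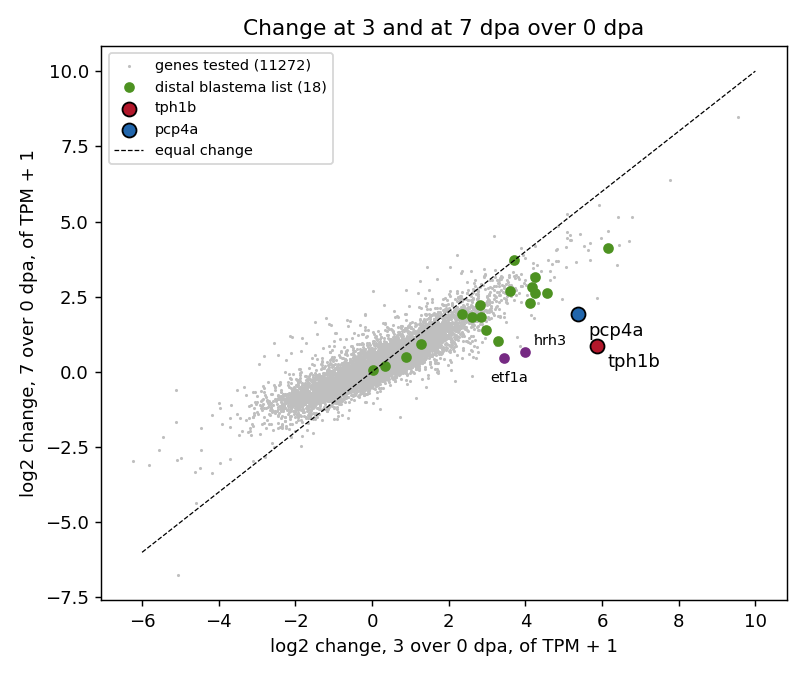
Change of each tested gene on the log2(TPM + 1) scale at 3 over 0 dpa (horizontal axis) and at 7 over 0 dpa (vertical axis), with the dashed line marking equal change. The genes tph1b and pcp4a sit at 5.86 and 5.36 on the horizontal axis and at 0.88 and 1.92 on the vertical axis. Both, chosen for their collapse by 7 dpa, lie below the distal blastema genes (green) whose horizontal value exceeds 4. The blastema gene fgf20a, at 3.30 on the horizontal and 1.03 on the vertical axis, lies lower than pcp4a.

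No change was detected in the other measured genes of serotonin synthesis. The gene tph2 encodes the tryptophan hydroxylase best known from neurons. It held 0.888, 1.03 and 1.25 TPM at 3 dpa, against 1.21, 0.945 and 0.739 TPM at 0 dpa. The groups overlapped, and the difference of 0.07 ± 0.15 did not pass (adjusted p = 0.729, 95% interval -0.27 to 0.40). The gene ddc held 0.635, 1.81 and 1.12 TPM at 3 dpa, against 0.473, 2.03 and 0.870 TPM at 0 dpa. Its difference of 0.07 ± 0.27 did not pass (adjusted p = 0.831, 95% interval -0.52 to 0.67), and the sign of both turned after median-of-ratios scaling (-0.06 and -0.07). Neither gene passed at any later time over 0 dpa, where 30.5% of all genes passed at 7, 16.7% at 10 and 11.2% at 14 dpa, and ddc had its highest mean, 1.87 TPM, at 14 dpa. Of all genes tested, 54.6% passed at 3 over 0 dpa, 35.0% upward and 19.6% downward.

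The share of tph1b in the summed TPM of tph1b and tph2 moved mainly with tph1b. It was 21.7%, 30.0% and 31.2% at 0 dpa and 98.6%, 98.8% and 98.6% at 3 dpa. It was 46.4%, 44.1% and 75.5% at 7 dpa, 53.0%, 44.0% and 46.8% at 10 dpa, and 59.1% and 54.1% at 14 dpa. The more abundant transcript was tph2 in every 0 dpa pool and tph1b in every 3 dpa pool. The paralog tph1a was not analysed here.

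Other aromatic amino acid hydroxylases use the same cofactor. The phenylalanine hydroxylase gene pah averaged 72.2 TPM at 3 dpa, against 67.9 TPM at 0 dpa, and did not pass (0.08, adjusted p = 0.784), with the sign turning after median-of-ratios scaling (-0.18). It had risen later, by 0.89 ± 0.23 at 7 over 0 dpa (adjusted p = 0.0100) and by 1.26 ± 0.23 at 10 over 0 dpa (adjusted p = 0.00189). The tyrosine hydroxylase genes th and th2 stayed at or under 0.0678 and 0.670 TPM in every library and were not tested. Thus none of the other hydroxylases had its highest mean at 3 dpa.

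**Figure D3:**
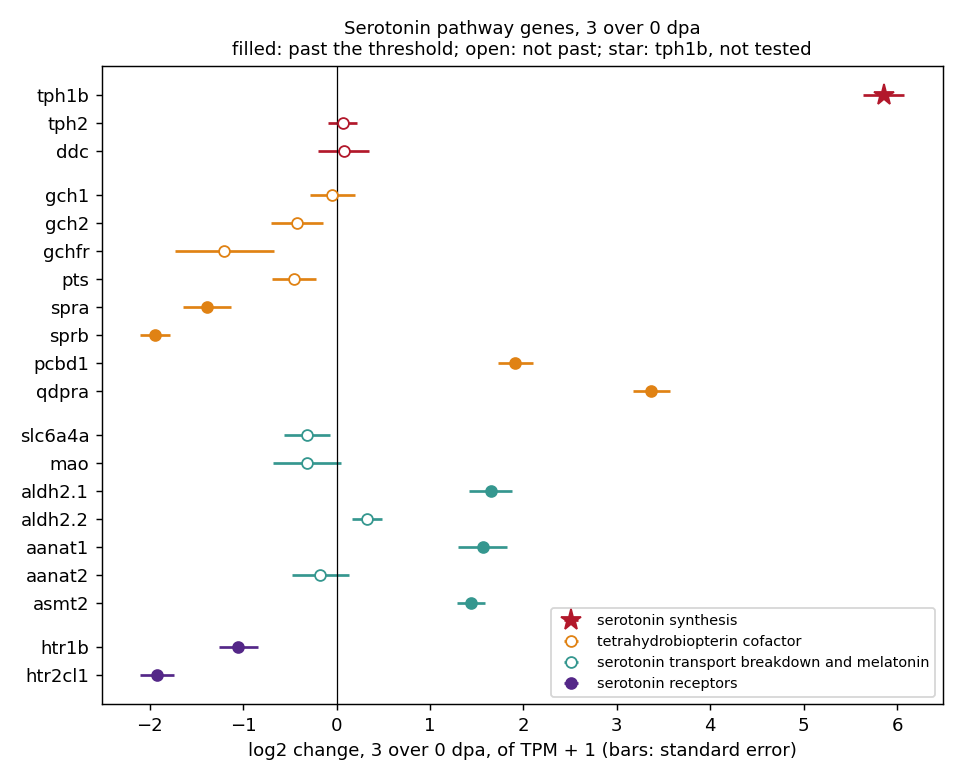
Change of the tested genes of serotonin handling on the log2(TPM + 1) scale at 3 over 0 dpa, with bars for the standard error, filled symbols past the threshold and open symbols not past it. The star marks tph1b at 5.86, which was chosen on this difference and not tested, while tph2 and ddc lie at 0.07 and qdpra leads the cofactor genes at 3.37.

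Among genes that make and recycle the cofactor tetrahydrobiopterin, 8 were tested. At 3 over 0 dpa 2 of these rose, 2 fell and 4 did not pass, beside 54.6% of all genes that passed. Both genes that rose belong to recycling, which restores the cofactor after each hydroxylation. The gene qdpra encodes dihydropteridine reductase. It held 86.2, 83.2 and 54.7 TPM at 3 dpa, against 5.26, 7.90 and 5.63 TPM at 0 dpa, and rose by 3.37 ± 0.20 (adjusted p = 5.30e-08). It was at 36.7, 43.9 and 30.8 TPM at 7 dpa, 25.4, 25.1 and 25.4 TPM at 10 dpa and 11.4 and 11.6 TPM at 14 dpa, so that it came down in steps, as pcp4a did. The step from 3 to 7 dpa, in which qdpra fell by 0.97 ± 0.20 on the log2 scale (adjusted p = 0.00553), was a 2.01-fold drop of the mean, against 50.3-fold for tph1b. The dehydratase gene pcbd1 averaged 19.3 TPM at 3 dpa, against 4.42 TPM at 0 dpa, and rose by 1.91 ± 0.19 (adjusted p = 3.78e-06).

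Both genes that fell encode sepiapterin reductases of new cofactor synthesis. The gene spra averaged 14.4 TPM at 3 dpa, against 41.4 TPM at 0 dpa, and fell by 1.39 ± 0.25 on the log2 scale (adjusted p = 5.75e-04). The gene sprb averaged 0.168 TPM at 3 dpa, against 3.48 TPM at 0 dpa, and fell by 1.94 ± 0.16 on the log2 scale (adjusted p = 7.97e-07). The entry enzyme gene gch1 averaged 5.82 TPM at 3 dpa, against 5.77 TPM at 0 dpa, and did not pass (adjusted p = 0.884). With median-of-ratios scaling 2 of the 8 rose and 5 fell. Over all genes that scaling gave 2941 upward and 2995 downward calls (reported: 3945 and 2214). Pigment cells also make pteridines, and gch2 is on both lists. Of 7 tested pigment cell markers 5 fell at 3 over 0 dpa, beside 19.6% of all genes. Their summed level was 87.0 to 122 TPM at 3 dpa, against 163 to 283 TPM at 0 dpa. The sum of the cofactor list was 131 to 156 TPM at 3 dpa, against 73.7 to 152 TPM at 0 dpa. Its largest member at 3 dpa was qdpra, with a mean of 74.7 TPM, against 6.26 TPM at 0 dpa. Besides qdpra only pcbd1 rose, and gch1 hardly differed. The means of spra, sprb, gch2, gchfr and pts were lower at 3 dpa, as the pigment sum was, with spra and sprb past the threshold. The mean of gch2 was 25.8 TPM at 3 dpa, against 36.4 TPM at 0 dpa. The pigment sum then averaged 601 TPM at 7 dpa and 810 TPM at 10 dpa, against 233 TPM at 0 dpa. At 7 and 10 dpa spra averaged 16.56 and 17.98 TPM and sprb 0.486 and 0.715 TPM, still below their 0 dpa means. The mean of pts was also below its 0 dpa mean at both times. The means of gch2 and gchfr were lower at 7 dpa and higher at 10 dpa than at 0 dpa. The part of pigment cells in the result was not tested.

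Of 7 tested genes of serotonin transport, breakdown and conversion to melatonin, 3 rose at 3 over 0 dpa and none fell. Over all genes 35.0% rose and 19.6% fell. The gene aanat1 encodes an arylalkylamine N-acetyltransferase, which acetylates serotonin, and asmt2 encodes a methyltransferase of the final melatonin step. The level of aanat1 was 3.24, 3.34 and 5.00 TPM at 3 dpa, against 0.607, 0.473 and 0.804 TPM at 0 dpa, a rise of 1.56 ± 0.26 (adjusted p = 2.99e-04). The level of asmt2 averaged 4.40 TPM at 3 dpa, against 0.987 TPM at 0 dpa, a rise of 1.44 ± 0.15 (adjusted p = 6.67e-06). At 7 dpa aanat1 was at 1.71, 0.469 and 2.12 TPM, and had dropped by 1.05 ± 0.26 on the log2 scale relative to 3 dpa (adjusted p = 0.0162, and 0.0694 without 3 dpa replicate 3). At that time asmt2 was at 4.47, 4.02 and 4.04 TPM. The aldehyde dehydrogenase gene aldh2.1, whose product is not specific to serotonin, rose by 1.65 ± 0.23 (adjusted p = 7.12e-05).

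The serotonin transporter gene slc6a4a held 4.95, 5.98 and 3.31 TPM at 3 dpa, against 6.41, 5.34 and 6.30 TPM at 0 dpa, and did not pass (-0.31, adjusted p = 0.302), although it did after quantile normalization (-0.68, adjusted p = 0.0173). The gene mao, for the monoamine oxidase that breaks serotonin down, did not pass (-0.32, adjusted p = 0.485). The second transporter gene slc6a4b was listed at 0 in all 14 libraries, and the vesicle transporter gene slc18a2 stayed at or under 0.400 TPM.

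Most measured serotonin receptor genes were scarce. Of 21 listed receptor genes only 8 were in the table, so nothing can be said of the rest. Of these 8 only htr1b and htr2cl1 passed the filter on low values. The other 6 stayed below 1 TPM in every library (the highest was htr5ab with 0.812 TPM, at 3 dpa). The mean of htr5ab was 0.485 TPM at 3 dpa, against 0.0450 TPM at 0 dpa. Both tested genes fell at 3 over 0 dpa, beside 19.6% of all genes. The gene htr2cl1 held 3.17, 2.58 and 2.25 TPM at 3 dpa, against 15.3, 11.6 and 11.8 TPM at 0 dpa, and fell by 1.92 ± 0.18 on the log2 scale (adjusted p = 2.64e-06). At 7 dpa it was 2.55-fold above 3 dpa in the means, and had risen (adjusted p = 0.00152), the step over which tph1b dropped. Of all genes tested, 9.14% passed upward and 7.57% downward at 7 over 3 dpa. The gene htr1b averaged 0.233 TPM at 3 dpa, against 1.64 TPM at 0 dpa, and fell by 1.05 ± 0.21 on the log2 scale (adjusted p = 0.00107). Without 0 dpa replicate 2 or 3 it missed the filter on low values and was not tested.

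The other main use of tryptophan is the kynurenine route. Of 9 tested genes of tryptophan uptake and that route, 1 rose, 3 fell and 5 did not pass at 3 over 0 dpa. Over all genes 35.0% rose and 19.6% fell. The monooxygenase gene kmo averaged 1.68 TPM at 3 dpa, against 6.36 TPM at 0 dpa, and fell by 1.41 ± 0.30 on the log2 scale (adjusted p = 0.00158). The dioxygenase gene ido1 fell by 1.35 ± 0.51 on the log2 scale (adjusted p = 0.0393) and haao, with 2.79 TPM at 3 dpa, against 7.12 TPM at 0 dpa, fell as well (adjusted p = 0.0282). The call of ido1 was lost without 0 dpa replicate 1 (0.146) or 2 (0.0551) or any single 3 dpa replicate (0.0596 to 0.126), and with the replicate number as a block (adjusted p = 0.0553). The call of haao was lost without 0 dpa replicate 1 (0.0907), 3 dpa replicate 2 (0.0649) or 3 dpa replicate 3 (0.104). The aminotransferase gene kyat1 rose by 0.95 ± 0.20 (adjusted p = 0.00151). Of 7 tested macrophage markers 2 fell, and the summed level of the list was 1120 to 1284 TPM at 3 dpa, against 3625 to 4670 TPM at 0 dpa. Most of that difference was in 1 gene, cd74a, with a mean of 936 TPM at 3 dpa, against 3843 TPM at 0 dpa. The other 6 genes summed to 264 to 277 TPM at 3 dpa, against 302 to 413 TPM at 0 dpa. The part of macrophages in the result was not tested.

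The closest measured relative of pcp4a by name moved the other way. The gene pcp4l1 held 2.74, 1.78 and 2.57 TPM at 3 dpa, against 10.5, 13.0 and 13.6 TPM at 0 dpa. The groups did not overlap, and pcp4l1 fell by 1.99 ± 0.25 on the log2 scale (adjusted p = 2.51e-05). It was at 6.32, 4.35 and 6.82 TPM at 7 dpa, 8.53, 6.67 and 3.93 TPM at 10 dpa and 7.96 and 7.78 TPM at 14 dpa. At 7 over 0 dpa it was still lower by 0.98 ± 0.25 (adjusted p = 0.00944), a time at which 21.5% of all tested genes passed upward and 9.07% downward. The ratio of pcp4a to pcp4l1 was thus 0.292 to 0.426 at 0 dpa, 83.9 to 113 at 3 dpa, 2.30 to 4.72 at 7 dpa, 1.84 to 3.57 at 10 dpa and 0.701 to 0.845 at 14 dpa. The more abundant of the pair was pcp4l1 at 0 and 14 dpa and pcp4a at 3, 7 and 10 dpa, in every library.

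The neurogranin gene nrgna, for a neuronal calmodulin-binding protein, fell by 0.68 ± 0.17 on the log2 scale at 3 over 0 dpa (adjusted p = 0.00556) at low levels, 0.465 TPM at 3 dpa, against 1.37 TPM at 0 dpa. The growth cone gene gap43 averaged 2.76 TPM at 3 dpa, against 0.763 TPM at 0 dpa, and rose by 1.05 ± 0.30 (adjusted p = 0.0107). Its adjusted p missed the threshold when 3 dpa replicate 3 was left out (0.0523) and after quantile normalization (0.0752). Of the 3 tested relatives 1 rose and 2 fell, beside 35.0% of all genes upward and 19.6% downward. The gene nrgnb was not tested because it stayed at or under 0.135 TPM, and the paralog pcp4b was not analysed here.

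Calmodulin itself was far more abundant than pcp4a at all times. The calmodulin genes encode near-identical proteins, and estimated transcript values can divide reads among such genes uncertainly. Of 5 tested, 2 rose, 1 fell and 2 did not pass at 3 over 0 dpa, beside 54.6% of all genes that passed. The gene calm3a held 58.4, 54.9 and 57.5 TPM at 3 dpa, against 15.5, 13.8 and 12.9 TPM at 0 dpa, a rise of 1.94 ± 0.12 (adjusted p = 7.59e-08). The gene calm1b held 20.6, 22.0 and 23.6 TPM at 3 dpa, against 86.2, 79.5 and 72.8 TPM at 0 dpa, and fell by 1.80 ± 0.12 on the log2 scale (adjusted p = 1.59e-07). These opposite moves were each larger than any spread between pools.

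The most abundant calmodulin gene, calm2b, averaged 1336 TPM at 3 dpa, against 837 TPM at 0 dpa. It rose by 0.68 ± 0.18 (adjusted p = 0.00708), a call that median-of-ratios scaling ended (0.42, adjusted p = 0.145). The gene calm3b averaged 683 TPM at 3 dpa, against 596 TPM at 0 dpa, and did not pass (0.20, adjusted p = 0.0759), with the sign turning after that scaling (-0.06). The gene calm1a did not pass either (0.28, adjusted p = 0.0796). At 14 dpa calm1b reached 153 and 148 TPM, the highest of its values, a rise of 0.91 ± 0.14 over 0 dpa (adjusted p = 0.00209), at a time when pcp4a averaged 6.09 TPM, against 4.26 TPM at 0 dpa.

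**Figure D4:**
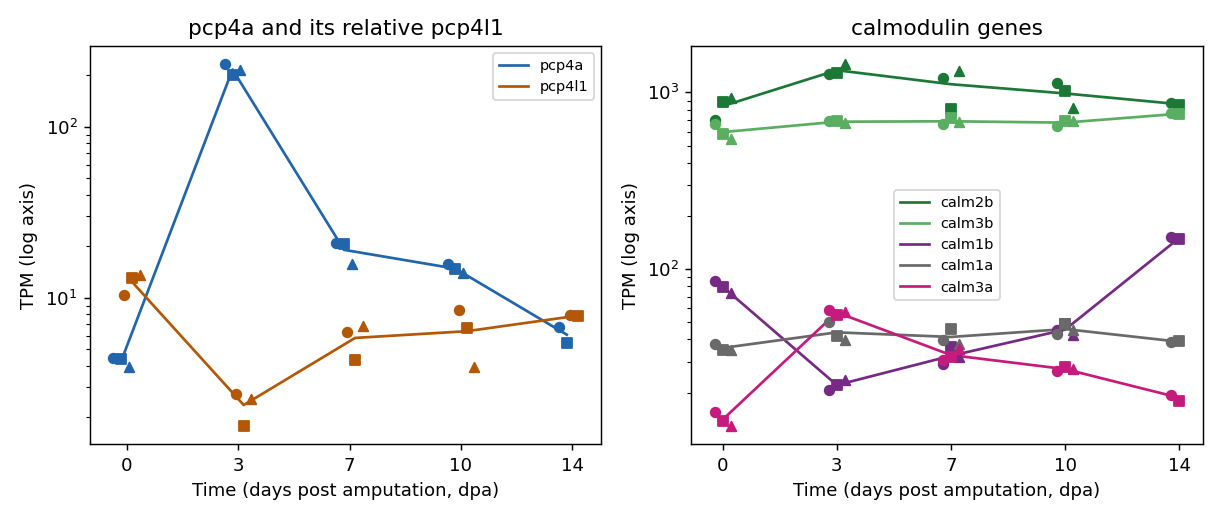
Levels in TPM on log axes against days post amputation for pcp4a and pcp4l1 (left) and the 5 tested calmodulin genes (right), with 1 symbol per library and lines through the means. The lines of pcp4a and pcp4l1 cross before 3 dpa and again by 14 dpa, and calm3a peaks at 3 dpa (mean 56.9 TPM) where calm1b is lowest (mean 22.1 TPM).

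Of 8 listed calmodulin genes 6 were in the table, and the sums here cover only those. Set against the summed TPM of these genes, pcp4a was 0.249% to 0.297% at 0 dpa and 9.55% to 11.1% at 3 dpa. It was 0.743% to 1.26% at 7 dpa, 0.800% to 0.867% at 10 dpa and 0.302% to 0.365% at 14 dpa. The summed calmodulin level itself was 2091 to 2240 TPM at 3 dpa, against 1500 to 1597 TPM at 0 dpa, so that the share followed pcp4a more than calmodulin.

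Among 17 tested genes for calmodulin-dependent enzymes, 4 rose and 6 fell at 3 over 0 dpa, which is 10 of 17 beside 54.6% of all genes. The count dropped to 6 with the replicate number as a block and to 4 without the 4 libraries that stood apart. Over all genes the block gave 5916 calls (reported: 6159). Without those 4 libraries 4756 of all genes passed upward and 2330 downward (reported: 3945 and 2214), so the list lost calls where all genes gained them. Leaving out single 0 dpa libraries gave 4 (replicate 1), 7 (replicate 2) and 5 (replicate 3), and single 3 dpa libraries gave 7, 5 and 6 in the same order. Over all genes, leaving out 1 library gave 5111 to 6203 calls. The inducible nitric oxide synthase gene nos2a averaged 43.9 TPM at 3 dpa, against 861 TPM at 0 dpa, and fell by 3.98 ± 0.87 on the log2 scale (adjusted p = 0.00197). Its 0 dpa pools ranged from 343 to 1724 TPM, with the highest value in the library that stood apart. The kinase gene camk2d1 averaged 30.7 TPM at 3 dpa, against 86.9 TPM at 0 dpa, and fell by 1.46 ± 0.17 on the log2 scale (adjusted p = 1.66e-05). The kinase gene camk1gb averaged 1.95 TPM at 3 dpa, against 0.539 TPM at 0 dpa, rose by 0.90 ± 0.24 (adjusted p = 0.00686) and fell again at 7 over 3 dpa (-0.98 ± 0.24, adjusted p = 0.0144).

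Over the 9 lists of serotonin and calmodulin genes, without tph1b and pcp4a themselves, 54 genes were tested. At 3 over 0 dpa 13 rose and 16 fell, beside 35.0% of all genes upward and 19.6% downward. In either direction that is 29 of 54, near the 54.6% of all genes that passed. The median change was -0.12 beside 0.24 over all genes, and after median-of-ratios scaling 10 rose and 21 fell. Over all genes that scaling gave 2941 upward and 2995 downward calls (reported: 3945 and 2214). At 7 over 0 dpa 10 rose and 7 fell, beside 30.5% of all genes in either direction. At 10 over 0 dpa 11 rose and 5 fell, beside 14.0% of all genes upward and 2.73% downward. At 14 over 0 dpa 3 rose and 4 fell, beside 10.1% upward and 1.08% downward. The number that passed at 10 over 0 dpa was 10 without replicate 2 or 3 of 0 dpa or replicate 3 of 10 dpa. At 14 over 0 dpa leaving out 0 dpa replicate 2 gave 4. Dropping replicate 1 of 14 dpa gave 2, dropping its replicate 2 gave 3, and dropping the 4 libraries that stood apart gave 12. None of the 54 was higher at 3 than at 0 dpa by as much as tph1b or pcp4a, which were chosen for being high at 3 dpa. The nearest was qdpra.

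The genes whose pattern over the 14 libraries was most like tph1b were ranked by Pearson correlation of log2(TPM + 1). The libraries share 5 times, so the coefficients describe the time course and carry no test. The closest was nrsn1, a neurite vesicle protein gene (r = 0.978), followed by etf1a (0.971), map1b (0.967), btf3l4 (0.964), mafa (0.962), syt9b (0.960), tfpia (0.953) and hspb8 (0.951). The level of nrsn1 was 19.0, 26.4 and 20.8 TPM at 3 dpa, against 0.135, 0.270 and 0.201 TPM at 0 dpa, and 2.17, 1.01 and 2.58 TPM at 7 dpa. Its mean at 7 dpa was 8.69% of that at 3 dpa. The microtubule protein gene map1b averaged 7.79 TPM at 3 dpa, against 0.696 TPM at 0 dpa and 1.79 TPM at 7 dpa. The transcription factor gene mafa, by contrast, averaged 25.6 TPM at 0 dpa and 104 TPM at 3 dpa, and at 7 dpa was back at 29.5 TPM.

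For pcp4a the closest was scpp5, of the secretory calcium-binding phosphoproteins (r = 0.989), then the heparin-binding growth factor gene mdka (0.985), fabp11a (0.985), meig1 (0.982), ptp4a2a (0.979), map1b (0.979), cd151l (0.977) and nrsn1 (0.977). The genes map1b and nrsn1 stood in both groups of 8. The gene scpp5 was listed at 0 in every 0 dpa library and averaged 17.9, 2.50, 1.13 and 0.168 TPM at 3, 7, 10 and 14 dpa. The gene mdka averaged 286, 2218, 743, 538 and 331 TPM over the 5 times, and at 7 dpa kept 33.5% of its 3 dpa mean. In the pcp4a group all means declined from each time to the next after 3 dpa. The 7 and 10 dpa pools of cd151l, map1b, meig1 and nrsn1 overlapped, however, unlike those of pcp4a, and cd151l hardly moved (76.9 and 75.8 TPM). All of the group except nrsn1 kept more of their peak than pcp4a at 7 dpa. With a pseudocount of 0.1, 3 of the 8 genes listed for tph1b and 6 of the 8 for pcp4a remained among the best 8.

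**Figure D5:**
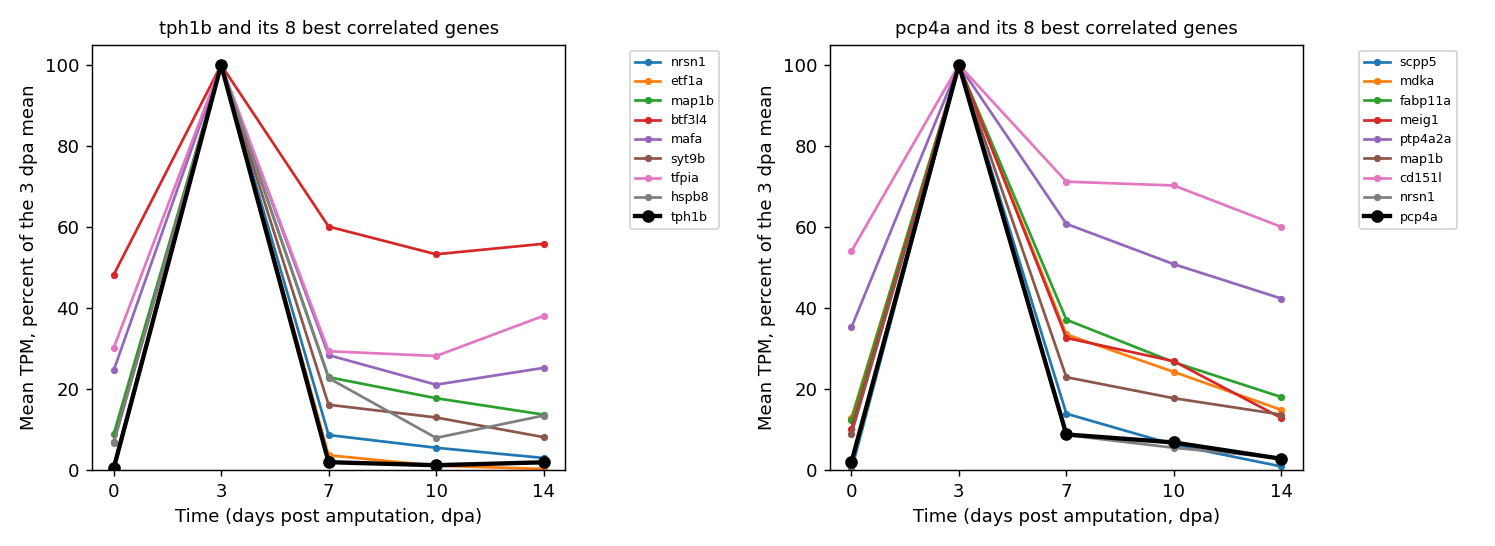
Mean TPM as a percent of the 3 dpa mean against days post amputation, for tph1b (left) and pcp4a (right), each in black, with the 8 genes best correlated with it. At 7 dpa tph1b is at 1.99% and pcp4a at 8.83%, and the other genes lie between 3.70% (etf1a) and 71.2% (cd151l).

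Cell type markers gave the setting of the peak. Over all genes 35.0% rose and 19.6% fell at 3 over 0 dpa, and 9.14% rose and 7.57% fell at 7 over 3 dpa. Of 18 tested genes of the distal blastema, 17 rose at 3 over 0 dpa, with a median change of 3.13, and their summed level was 5225 to 5571 TPM at 3 dpa, against 1617 to 2305 TPM at 0 dpa. All 14 tested fibroblast genes rose at 3 over 0 dpa, with sums of 16770 to 19635 TPM at 3 dpa, against 2520 to 3338 TPM at 0 dpa. These sums came down far less by 7 dpa than tph1b and pcp4a, which were chosen for their collapse. At 7 dpa they were 2917 to 3320 TPM for the blastema list and 8250 to 11639 TPM for the fibroblast list. Without its most abundant gene, hmga1a, the blastema list had mean sums of 1069, 4416 and 2261 TPM at 0, 3 and 7 dpa. Without fn1b the fibroblast list had mean sums of 817, 12513 and 6830 TPM at those times. At 7 over 3 dpa 11 of the 18 blastema genes fell, and their changes ran from -2.26 to 0.04. None dropped as far as pcp4a (-3.44) or tph1b (-4.98). That was bound to hold, since the pair was chosen for its collapse and had the 2 largest drops of all tested genes. Without 3 dpa replicate 3 the number of blastema genes that passed was 7. By share the blastema gene fgf20a came down further than pcp4a. It was higher by 3.30 at 3 over 0 dpa, of which 31.4% was left at 7 dpa, against 35.8% for pcp4a. At 14 over 10 dpa the 18 blastema genes ran from -1.41 to 0.27, a range that contains pcp4a (-1.16) but not tph1b (0.36). The tph1b change had a standard error of 0.25 and did not pass (limma, adjusted p = 0.387). Its place outside the range is therefore not resolved.

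Relatives of both genes are also known from nerves and sensory cells, whose markers were examined. Of 7 tested neuron and axon genes, 6 rose at 3 over 0 dpa, beside 35.0% of all genes. Among the 6 were stmn2b, by 2.05 ± 0.27 (adjusted p = 4.26e-05), and snap25b, by 0.88 ± 0.17 (adjusted p = 9.06e-04). Levels were low, at means of 4.99 and 1.01 TPM at 3 dpa, against 0.449 and 0.0895 TPM at 0 dpa. Their untested paralogs stmn2a and snap25a averaged 0.274 and 0.170 TPM at 3 dpa, against 0.494 and 0.292 TPM at 0 dpa. The number of the list that passed was 1 to 6 over all alternatives, and 4 to 6 on leaving out 1 library. The summed level of the neuron and axon list over 12 genes was 21.7 to 29.9 TPM at 3 dpa, against 9.52 to 10.5 TPM at 0 dpa. It was 26.1 to 39.5 TPM at 7 dpa, of which syt1a alone made up 18.5 to 30.2 TPM. The other 11 genes summed to 13.6 to 15.2 TPM at 3 dpa, against 5.60 to 6.82 TPM at 0 dpa, and to 7.54 to 9.25 TPM at 7 dpa. Without syt1a the neuron sum was thus lower at 7 than at 3 dpa. With syt1a its mean was higher, at 33.6 TPM at 7 dpa, against 26.0 TPM at 3 dpa. At 7 over 3 dpa 1 of the 7 tested genes rose (syt1a) and 2 fell (stmn2b and snap25b), with a median change of -0.38 beside -0.03 over all genes, and without 3 dpa replicate 2 the number that passed was 1. The pan-neuronal gene elavl3 never exceeded 0.0668 TPM. The gene gap43 is on both this list and that of pcp4a relatives. Merkel and neuroepithelial cell markers, which share syt1a with the neuron list, summed to 14.0 to 22.5 TPM over 8 genes at 3 dpa, against 15.8 to 19.6 TPM at 0 dpa, and to 35.9 to 47.2 TPM at 7 dpa. Without syt1a these sums were 5.85 to 9.38 TPM at 3 dpa, against 11.9 to 16.0 TPM at 0 dpa, and 11.7 to 17.3 TPM at 7 dpa. Lymphocyte and mast cell markers summed to 20.5 to 26.9 TPM over 6 genes at 3 dpa, against 64.9 to 111 TPM at 0 dpa. Of the 6 genes, 3 fell at 3 over 0 dpa and 3 did not pass. The means of il7r, lck, zap70 and cd8a were lower at 3 dpa, while those of cpa5 and ms4a17a.8 were higher, with overlapping pools. The gene cpa5 held 0.513 to 1.69 TPM at 3 dpa, against 0.737 to 1.28 TPM at 0 dpa. The gene ms4a17a.8 held 4.92 to 8.19 TPM, against 3.35 to 5.67 TPM. The lower sum was thus not shared by all genes of the list. The part of these cells in the levels of tph1b and pcp4a was not tested.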

How the data were processed

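Bulk RNA of fin ray tips was sequenced in 14 libraries, 3 per time and 2 at 14 dpa. Each library came from a pool of 10 fish, per the series' design text, so p-values measure the spread between pools. The authors deposited TPM per gene. Trim Galore 0.6.7, cutadapt 3.5, Salmon 1.4.0 and danRer11 are named in the submitters' processing notes. The sources used here do not say how genes were summed from transcripts, and TPM carries no read depth. Gene symbols are those of the deposited table, and no sequence or coordinate was used here.

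The filter kept 11272 genes that reached 1 TPM in 2 or more libraries. A model with 1 mean per time was fitted to log2(TPM + 1) over all libraries (limma 3.58.1, R 4.3.3) with variance trend and two-sided tests adjusted by Benjamini-Hochberg. Intervals are 95% intervals of the model. Fits were tested on simulated data. Tests of tph1b and pcp4a against 0 dpa had been planned and are not given, because the 0 dpa levels chose the genes.

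The members, the 9 pathway lists and the 12 marker lists were chosen with earlier results of these data known. Genes named are tph1b and pcp4a, all measured genes of serotonin synthesis, hydroxylases, pcp4 relatives and calmodulin, and the largest changes past the threshold in other lists. The 8 genes most like each member had a mean of at least 5 TPM at their highest time. Of 110 pathway genes besides the members, 72 were in the table and 54 were tested. Replicate numbers from the titles were checked for pairing. At 3 and 0 dpa the deviations of same-numbered libraries correlated at 0.301, 0.285 and 0.175. Of the unmatched pairs of these times, 0 dpa replicate 3 and 3 dpa replicate 2 correlated at 0.227, and the others at -0.371 to -0.0392. Over all pairs of times, same-numbered libraries correlated at -0.772 to 0.571. The reported model has no term for the replicate number, so its p-values ignore any pairing. A fit with the number as a block over all times was run as an alternative. In it 5916 genes passed at 3 over 0 dpa (reported: 6159). The alternative without the 4 libraries apart and the sums without a list's most abundant gene were chosen after seeing the data.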

Additional observations from a re-analysis of the deposited data

How the results depend on the processing

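No result of tph1b or pcp4a turned its direction in any alternative that was run. Differences with 0, 3 or 7 dpa, which are descriptions, moved mainly with the scale. With a pseudocount of 0.1 the log2 difference of tph1b was 7.41 at 3, 1.77 at 7, 1.21 at 10 and 1.83 at 14 over 0 dpa, and -5.64 at 7 over 3 dpa. With a pseudocount of 5 it was 3.95, 0.29, 0.16, 0.29 and -3.66 in the same order. Quantile normalization gave 0.54 at 7, 0.20 at 10 and 0.63 at 14 over 0 dpa, and median-of-ratios scaling 0.76 at 14 over 0 dpa. At 10 over 0 dpa library weights gave 0.37 and the fit without the 4 libraries apart 0.68. For pcp4a at 3 over 0 dpa the values were 5.63 and 4.57 with those pseudocounts, 5.14 after median-of-ratios scaling and 5.11 after quantile normalization. In the same order they were 2.12, 1.37, 1.71 and 1.54 at 7 over 0 dpa and 1.77, 1.095, 1.39 and 1.23 at 10 over 0 dpa, where the fit without the libraries apart gave 1.69. At 14 over 0 dpa pcp4a was 0.26 with a pseudocount of 5, 0.16 after median-of-ratios scaling and 0.016 after quantile normalization, and at 7 over 3 dpa -3.20 with a pseudocount of 5.

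The difference of 10 and 14 dpa together over 0 dpa was 1.46 for tph1b and 1.26 for pcp4a with a pseudocount of 0.1, and 0.21 and 0.76 with a pseudocount of 5. For pcp4a it was 0.90 after median-of-ratios scaling and 0.86 without the 4 libraries apart. On leaving out 1 library it was 0.60 to 0.76 for tph1b and 0.99 to 1.33 for pcp4a. At 14 over 10 dpa, the step that was tested, tph1b passed with library weights (0.51, adjusted p = 0.0370). The cause was not tested.

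Counts of genes past the threshold moved most. With library weights they were 5349 (reported: 3442) at 7 over 0 dpa, 6433 (1885) at 10 over 0, 4985 (1265) at 14 over 0, 3091 (1883) at 7 over 3 and 5027 (989) at 14 over 10 dpa. With the 2 groups fitted alone they were 1244 at 10 over 0, 253 at 14 over 0 and 436 at 14 over 10 dpa. At 14 over 0 dpa median-of-ratios scaling gave 524, quantile normalization 409 and the fit without the 4 libraries apart 3459, and at 14 over 10 dpa the last gave 472. Leaving out 1 library gave 1196 to 2620 at 10 over 0, 177 to 1984 at 14 over 0 and 120 to 1274 at 14 over 10 dpa. Upward calls were 64.1% of calls at 3 over 0 dpa and 49.5% after median-of-ratios scaling, 70.3% and 48.9% at 7, 83.7% and 58.5% at 10, and 90.4% and 51.9% at 14 over 0 dpa.

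Of the pathway genes, 16 passed at 3 over 0 dpa and 11 at 7 over 0 dpa with a mean of at least 5 TPM required, which tests fewer genes. With library weights 27 passed at 7, 32 at 10 and 21 at 14 over 0 dpa. With the 2 groups alone 9 passed at 10 over 0, 2 at 14 over 0 and 6 at 7 over 3 dpa, and without the 4 libraries apart 12 at 14 over 0 dpa. Leaving out 1 library gave 10 to 19 at 10 over 0, 2 to 10 at 14 over 0 and 8 to 13 at 7 over 3 dpa. With the replicate block 24 of the pathway genes passed at 3 over 0 dpa, and beyond the calls named beside their results the block ended no call of tph1b or pcp4a (pcp4a at 14 over 10 dpa -1.21, adjusted p = 0.00363). TPM keeps no depth, so the precision of low genes such as tph1b after 3 dpa is not known from the files.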

Other observations

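Other tissues of the tip moved in the same window. Over all genes 35.0% rose and 19.6% fell at 3 over 0 dpa. Of 9 tested osteoblast genes 6 rose at 3 over 0 dpa, and their summed level was 12847 to 12974 TPM at 3 dpa, against 227 to 369 TPM at 0 dpa. At 7 dpa it was 8341 to 11707 TPM. This group thus kept most of its 3 dpa level, like the fibroblast genes and unlike tph1b and pcp4a, which were chosen for their collapse. Nearly all of these sums came from col10a1a, and the other 8 genes summed to 496 to 525 TPM at 3 dpa, against 62.8 to 139 TPM at 0 dpa, and to 475 to 664 TPM at 7 dpa. Of 6 tested genes of endothelium and thrombocytes 5 rose, with sums of 172 to 185 TPM at 3 dpa, against 62.5 to 71.7 TPM at 0 dpa. Of 10 tested regeneration epidermis genes 8 rose, with sums of 1037 to 1257 TPM at 3 dpa, against 168 to 274 TPM at 0 dpa.

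Basal epidermis, Schwann cell and pigment genes went the other way, at a step where 19.6% of all genes fell. Of 7 tested basal epidermis genes 4 fell at 3 over 0 dpa, with sums of 31838 to 39028 TPM at 3 dpa, against 59838 to 96458 TPM at 0 dpa. The keratin gene krt5 made up most of these sums, and the other 6 genes summed to 2717 to 4072 TPM at 3 dpa, against 4340 to 9989 TPM at 0 dpa. Of 8 tested Schwann cell and glia genes 6 fell and 2 rose, with sums of 99.5 to 114 TPM at 3 dpa, against 173 to 249 TPM at 0 dpa. Pigment cell genes summed to 581 to 618 TPM at 7 dpa, above their 3 and 0 dpa sums, at the step over which tph1b and pcp4a dropped.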
